A study of Mus musculus with 64 samples.

Results

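The Slc25 family of solute carriers was examined in the hippocampus of 8 inbred mouse strains. Members were all protein-coding genes whose symbol is Slc25a followed by a number, a rule that uses no measured value. It gave 47 genes of the 32227 gene identifiers in the count table. RNA had been sequenced in bulk from 64 hippocampus samples, 4 females and 4 males of each of C57BL/6J, 129S1/SvImJ, NOD/ShiLtJ, A/J, CAST/EiJ, PWK/PhJ, NZO/HlLtJ and WSB/EiJ. The labels write some of these names with another character in place of the slash. All 8 are founder strains of the mouse populations named Collaborative Cross and Diversity Outbred. CAST/EiJ, PWK/PhJ and WSB/EiJ are derived from wild mice, and the other strains are classical laboratory strains. The labels name no genetic change or treatment, and the ages of the mice are not given in the sources used here.

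Most Slc25 proteins sit in the inner mitochondrial membrane and exchange a metabolite of the matrix for one of the space outside. Each is a bundle of membrane-spanning helices that opens to one side of the membrane at a time. In brain they carry ADP and ATP, phosphate, the substrates of the malate-aspartate shuttle, glutamate, iron and many cofactors. The symbol does not guarantee a mitochondrial carrier. Slc25a17 is a carrier of the peroxisome, and Slc25a46 is an outer membrane protein that takes part in mitochondrial dynamics. The uncoupling proteins and the MTCH proteins belong to the same family under other names and were handled separately.

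Totals ran from 16607602 to 27759221 counts per library, with a median of 22176356.5. Markers of hippocampal neurons were present in every library. The CA1 neuron list summed to between 676.5 and 1330 CPM (counts scaled by library size and TMM factor) and the dentate granule list to between 307.9 and 561.2 CPM. Choroid plexus markers ranged from 21.7 to 4946 CPM across libraries. In 6 libraries, genes with short transcripts were high relative to genes with long ones. These were 129S1/SvImJ female 1, A/J male 2, C57BL/6J male 4, CAST/EiJ female 4, NZO/HlLtJ male 2 and WSB/EiJ female 1. Nothing in the labels says which samples came from separate animals, so p-values measure the spread between these samples only.

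Of the 47 genes, 42 passed the filter on low counts. Slc25a2, Slc25a41, Slc25a43, Slc25a48 and Slc25a54 did not, and each had at most 13 counts in any library. Levels were compared between genes as CPM per kilobase of annotated exon, given as mean ± SD over 64 libraries. Slc25a4, the ADP/ATP carrier of muscle and brain also called ANT1, stood highest at 251 ± 23.3. Slc25a5, the ADP/ATP carrier ANT2, followed at 129 ± 10.4. Slc25a23, a calcium-regulated carrier that exchanges ATP-Mg for phosphate, was at 96.7 ± 8.75. The phosphate carrier Slc25a3 was at 57.9 ± 4.78 and the glutamate carrier Slc25a22 at 51.2 ± 4.66. Slc25a4 alone held 18.3% of all counts of the family, and the 5 genes with most counts held 60.1%. The summed level of all 47 genes ran from 3125 ± 22.3 CPM (SD, n = 8) in NZO/HlLtJ to 3299 ± 101 CPM in WSB/EiJ. The highest NZO/HlLtJ library, at 3158 CPM, was below the lowest of CAST/EiJ (3190), NOD/ShiLtJ (3196), PWK/PhJ (3201) and WSB/EiJ (3213). It was above the lowest of C57BL/6J (3133), 129S1/SvImJ (3136) and A/J (3018). The lowest A/J library was also below the lowest of NZO/HlLtJ (3096). The sum was not tested.

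**Figure D1:**
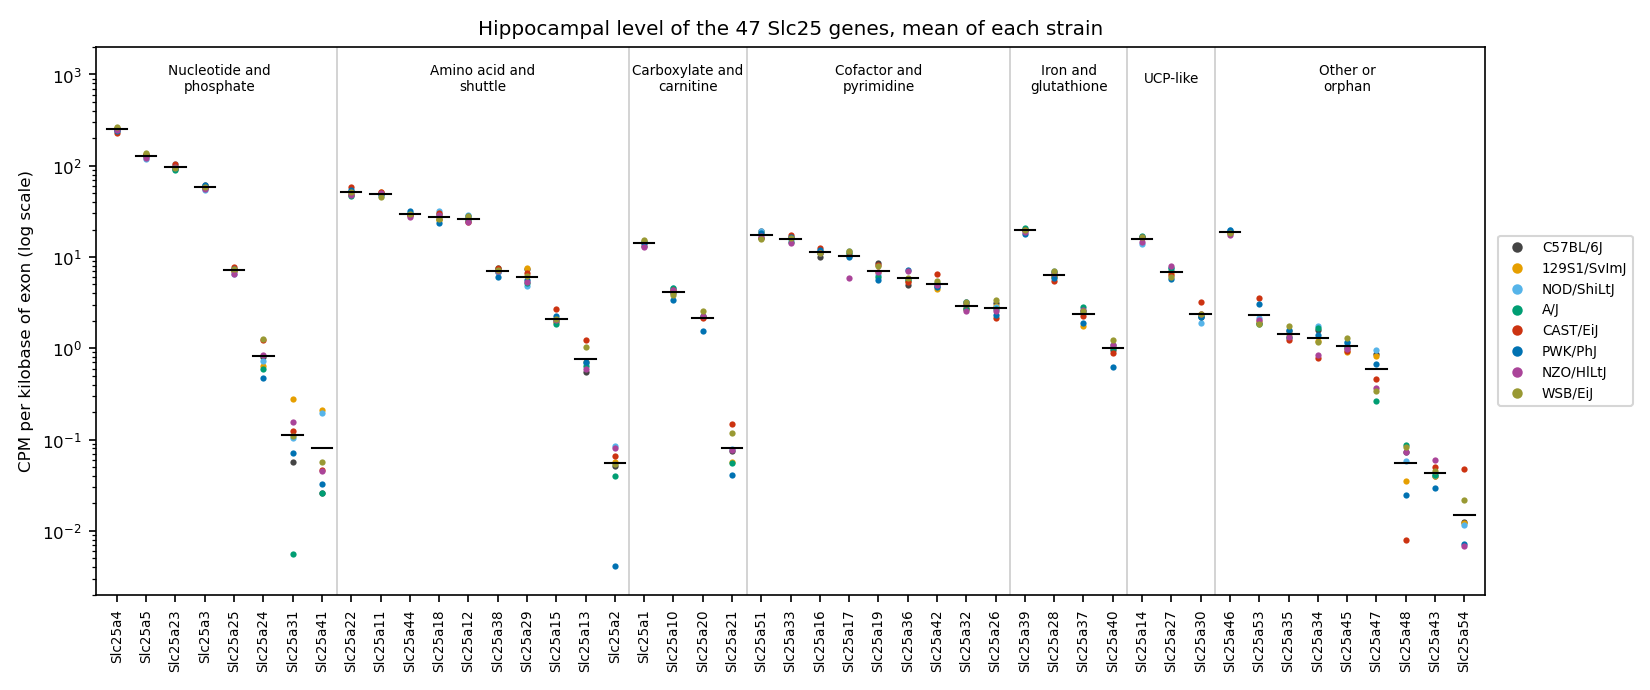
Mean level of each of the 47 Slc25 genes in CPM per kilobase of exon on a log axis, with a point for each strain and a line at the mean of 64 libraries, by role. Slc25a4 stands highest at 251, and strain means lie close together for abundant genes and apart for rare ones; Slc25a54 in A/J is at 0 and has no point.

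Paralogues with related substrates differed widely in level. Among the aspartate/glutamate carriers of the malate-aspartate shuttle, Slc25a12 (aralar) was at 26.4 ± 2.22 CPM per kilobase and Slc25a13 (citrin) at 0.772 ± 0.269. The glutamate carriers lay closer, with Slc25a22 at 51.2 ± 4.66 and Slc25a18 at 27.7 ± 3.3. Of the ATP-Mg carriers, Slc25a25 was at 7.12 ± 0.53, Slc25a24 at 0.817 ± 0.297 and Slc25a41 at 0.0801 ± 0.0957, all below Slc25a23. Slc25a39, a carrier needed for mitochondrial glutathione, was at 19.6 ± 2.18 and its paralogue Slc25a40 at 1 ± 0.191. Of the mitoferrins, which bring iron into the matrix, Slc25a28 was at 6.42 ± 0.877 and Slc25a37 at 2.38 ± 0.423. The carriers related to uncoupling proteins ranged from 15.9 ± 1.62 for Slc25a14 to 2.37 ± 0.408 for Slc25a30. These levels depend on the annotated exon length, and no test was made between genes.

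Differences among strains were tested with an F test over 8 strains in edgeR's quasi-likelihood model, with Benjamini-Hochberg adjustment over 17382 genes. A gene was called when its adjusted p was below 0.05 and its range, the log2 difference between the highest and lowest strain mean, was at least 1. By this rule 6 of 42 members (14.3%) were called, beside 27.6% of all genes tested. They were Slc25a13, Slc25a21, Slc25a24, Slc25a31, Slc25a34 and Slc25a47. By adjusted p alone, 41 of 42 (97.6%) passed, beside 89.2% of all genes. The exception was Slc25a39 (adjusted p = 0.109, range 0.23), which had values of 0.0486 (without the 6 libraries high in short transcripts) to 0.206 over the alternatives. The median range of the members was 0.44 and that of all genes 0.55. In bulk RNA, fewer cells of a type and less RNA per cell cannot be told apart. Whether a strain-specific genome was used is not given. A lower level and fewer matched reads in a strain therefore cannot be told apart here either.

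Range followed level. Of the 9 members at a mean of 100 CPM or more, 0 were called, beside 2.24% of all genes at that level. From 10 to 100 CPM, 0 of 24 members were called, beside 7.18% of genes. From 1 to 10 CPM, 4 of 7 members were called, beside 43.8% of genes. Both tested members below 1 CPM, Slc25a21 and Slc25a31, were called, beside 76.9% of genes. The narrowest ranges belonged to Slc25a46 (0.18), Slc25a3 (0.19) and Slc25a11 (0.21), the oxoglutarate/malate carrier of the malate-aspartate shuttle. The members just inside the threshold were Slc25a34 at 1.15 and Slc25a13 at 1.17. Just outside stood Slc25a17 at 0.9997, Slc25a40 at 0.96 and Slc25a53 at 0.93. Slc25a17 passed the minimum under 7 of 10 alternatives and in 7 of 64 fits without a library, so its place outside the calls, and the count of 0 of 24, depend on the setting.

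Each strain was also compared with the mean of the other 7, with a call at a log2 difference of at least 1 and an adjusted p below 0.05. By adjusted p alone, 28 members (66.7%) passed in CAST/EiJ, beside 56.8% of all genes, and 26 (61.9%) in PWK/PhJ, beside 57.7%. The count was 25 (59.5%) in WSB/EiJ, beside 42.3% of all genes, with 18 higher and 7 lower, beside 22.3% and 20% of all genes. In NZO/HlLtJ 21 passed (50%), beside 38% of all genes, with 5 higher and 16 lower, beside 21.8% and 16.2%. NOD/ShiLtJ and A/J each had 23 (54.8%), beside 39.6% and 33.9%. 129S1/SvImJ had 16 (38.1%), beside 32.3%, and C57BL/6J 14 (33.3%), beside 38%. With the fold minimum, 5 calls remained. These were Slc25a31 in 129S1/SvImJ, A/J and NZO/HlLtJ, Slc25a47 in A/J and Slc25a21 in CAST/EiJ. Of all genes, 3.64% were called in 129S1/SvImJ, 3.58% in A/J, 3.65% in NZO/HlLtJ and 9.25% in CAST/EiJ. In the strains with 0 members called the shares were 3.85% (C57BL/6J), 3.91% (NOD/ShiLtJ), 9.35% (PWK/PhJ) and 4.95% (WSB/EiJ). In at least 1 strain, 18.9% of all genes were called. The 8 comparisons share libraries.

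**Figure D2:**
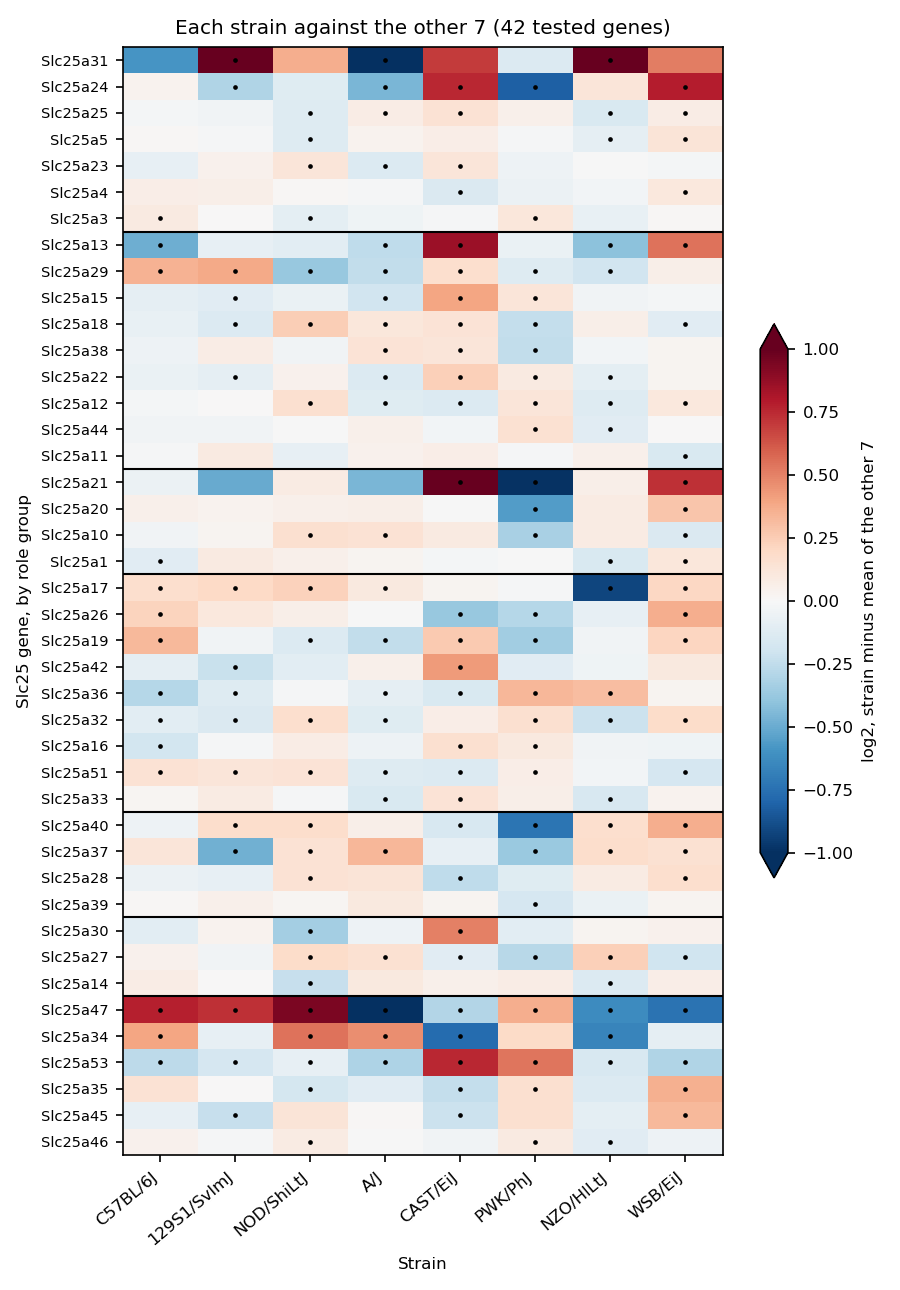
Log2 difference of each strain from the mean of the other 7 for the 42 tested Slc25 genes, grouped by role, with a dot where the adjusted p is below 0.05 and colours saturated at 1. The dark cell of Slc25a17 is in NZO/HlLtJ, those of Slc25a20 and Slc25a40 are in PWK/PhJ, and Slc25a53 is high in CAST/EiJ and PWK/PhJ.

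In 4 members all 8 libraries of a strain lay outside the 56 others, 1 in NZO/HlLtJ, 1 in CAST/EiJ and 2 in PWK/PhJ, beside 0.391%, 3.76% and 3.74% of all genes. Each missed the fold minimum. Slc25a17, Slc25a53, Slc25a20 and Slc25a40 were singled out for this after their values were seen. The reference sequence of the 250 bases before the start of each gene is shown, since these are the members in which a strain separated fully. The sequences come from RefSeq on GRCm38.p6, the build of the C57BL/6J reference, and so show no base of the other strains. They read 5′ to 3′ on the strand of the gene, at chr15:81360766-81361015 (minus) for Slc25a17, chrX:137038303-137038552 (minus) for Slc25a53, chr9:108661886-108662135 (plus) for Slc25a20 and chr5:8422588-8422837 (plus) for Slc25a40. Capitals mark a match to CCGGAAG, the core bound by GABPA, or to GGGGCGGGG, a GC box bound by SP1, on either strand (in Slc25a40 on the reverse strand, so its complement is shown). The RefSeq table holds 2 entries for Slc25a53, of which the first was used.
Slc25a17: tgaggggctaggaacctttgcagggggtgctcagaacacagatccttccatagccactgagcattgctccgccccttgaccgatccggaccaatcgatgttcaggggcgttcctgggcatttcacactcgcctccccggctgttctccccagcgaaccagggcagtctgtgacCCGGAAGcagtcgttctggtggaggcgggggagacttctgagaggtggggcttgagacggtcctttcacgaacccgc
Slc25a53: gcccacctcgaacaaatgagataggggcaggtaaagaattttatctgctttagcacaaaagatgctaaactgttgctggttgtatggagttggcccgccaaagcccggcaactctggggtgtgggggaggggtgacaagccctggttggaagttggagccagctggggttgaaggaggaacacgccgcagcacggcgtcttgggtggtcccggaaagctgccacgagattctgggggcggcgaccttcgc
Slc25a20: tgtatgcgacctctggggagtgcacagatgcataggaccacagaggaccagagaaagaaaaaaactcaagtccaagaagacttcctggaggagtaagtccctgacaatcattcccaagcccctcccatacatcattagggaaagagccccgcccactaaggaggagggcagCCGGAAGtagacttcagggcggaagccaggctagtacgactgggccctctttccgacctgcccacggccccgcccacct
Slc25a40: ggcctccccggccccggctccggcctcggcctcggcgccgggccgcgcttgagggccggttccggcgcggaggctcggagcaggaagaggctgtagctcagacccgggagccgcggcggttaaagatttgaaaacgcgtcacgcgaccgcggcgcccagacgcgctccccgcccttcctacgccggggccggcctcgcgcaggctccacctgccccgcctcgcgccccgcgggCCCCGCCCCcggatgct

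The GABPA core began 77 bases before the start of Slc25a17 and 79 bases before that of Slc25a20. It was found in 6 of the 36 members with a promoter in the table (16.7%), among them Slc25a3, Slc25a4 and Slc25a38, and in 7.05% of 27025 promoters. The SP1 match lay 17 bases before the start of Slc25a40, whose window is 78% G and C. This motif was found in 3 of 36 members (8.33%) and in 10.5% of all promoters. The Slc25a53 window held none of the 6 motifs searched. The other 4 were those of NRF1, CRE (TGACGTCA), ERR (TCAAGGTCA) and YY1. They were found in 0, 1, 0 and 0 members and in 0.781%, 1.62%, 0.366% and 0.218% of all promoters. Motifs were searched on both strands, do not overlap one another in these windows, and are matches of letters only. The members' windows had a median of 58.6% G and C against 52% over all promoters. The part of this in the shares was not tested, nor were the shares themselves.

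Slc25a17, on chromosome 15, encodes the peroxisomal carrier of coenzyme A, FAD and related cofactors. In NZO/HlLtJ the females measured 17.3, 16.3, 16.6 and 16.4 CPM and the males 17.3, 16.5, 17.8 and 14.7 CPM. The other 7 strains ran from 27.1 to 36.1 CPM, so NZO/HlLtJ lay below every other library in both sexes. Its mean was 16.6 ± 0.94 CPM (SD, n = 8) against 31.4 ± 2.23 CPM (n = 56). The log2 difference from the other strains was -0.91 ± 0.03 (SE), with an adjusted p of 1.55e-31. Among the other 7 strains, means ran from 28.7 in PWK/PhJ to 33.3 CPM in NOD/ShiLtJ, and no neighbours in that order passed the test (adjusted p of 0.167 to 0.937). Strains farther apart in it did differ, with 10 of 21 pairs passing at sizes of 0.10 to 0.21. NZO/HlLtJ and PWK/PhJ, the next lowest, differed by 0.79 (adjusted p = 2.47e-24). Strain accounted for 95.4% of the variance of its log2 level, the highest share among the 42 members.

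Slc25a53 is an X-linked family member whose substrate is not established. CAST/EiJ males measured 26.5, 28.8, 28.3 and 28.4 CPM and CAST/EiJ females 28.1, 30.4, 27.3 and 26.9 CPM. PWK/PhJ females measured 23.3, 23.7, 24.9 and 24.6 CPM and PWK/PhJ males 26.5, 24.2, 25 and 23.7 CPM. The other 48 libraries ran from 12.7 to 17.8 CPM, so these strains stood together above the rest, without overlap. The mean over both was 1.69 times that of the other strains. CAST/EiJ exceeded the other 7 strains by 0.76 ± 0.03 (log2, SE; adjusted p = 1.71e-28) and exceeded PWK/PhJ by 0.20 (adjusted p = 0.000145). PWK/PhJ in turn exceeded NOD/ShiLtJ, the next strain, by 0.54 (adjusted p = 1.71e-15), and among the 6 lower strains no neighbours passed the test. Of all 15 pairs among those 6, 6 passed, at sizes of 0.12 to 0.20.

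Slc25a20 is the carnitine/acylcarnitine carrier, which brings long-chain fatty acids into the matrix for oxidation. In PWK/PhJ the females measured 7.78, 8.34, 6.53 and 7.31 CPM and the males 7.55, 8, 5.77 and 8.05 CPM. The mean was 7.42 ± 0.864 CPM (SD, n = 8) against 11 ± 0.962 CPM in the 56 other libraries, none of which was lower than 9.52 CPM. The log2 difference was -0.56 ± 0.05 (SE; adjusted p = 1.06e-14). WSB/EiJ stood at the other end with 12.4 ± 1.06 CPM, above NZO/HlLtJ by 0.17 (adjusted p = 0.0213). The 6 strains between lay from 10.4 to 11 CPM, and 0 of the 15 pairs among them passed the test.

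Slc25a40 is the paralogue of the glutathione carrier gene Slc25a39. PWK/PhJ was again lowest, with 5.02, 5.45, 5.5 and 6.13 CPM in females and 4.86, 5.6, 4.45 and 5.29 CPM in males. The mean was 5.29 ± 0.515 CPM (SD, n = 8) against 8.83 ± 1.14 CPM in the others. The next library, a CAST/EiJ female, was at 6.17 CPM. The log2 difference was -0.73 ± 0.05 (SE; adjusted p = 1.63e-17). WSB/EiJ was highest at 10.3 ± 0.964 CPM, above 129S1/SvImJ by 0.17 (adjusted p = 0.0441). Slc25a39 itself was lowest in PWK/PhJ at 48.7 ± 5.19 CPM against 54.7 ± 5.76 CPM in the others, a log2 difference of -0.17 ± 0.06 (SE; adjusted p = 0.00979), although its F test missed the threshold.

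**Figure D3:**
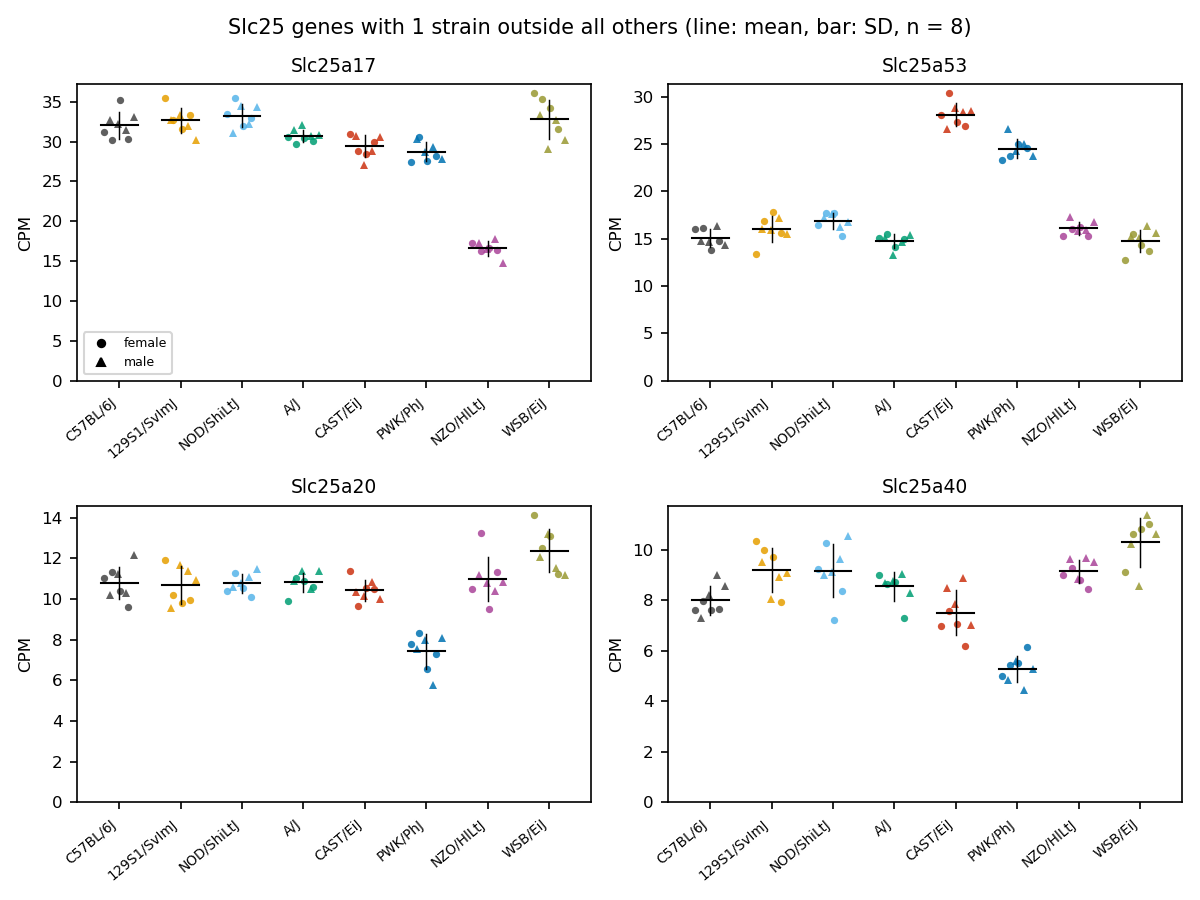
CPM in each of 64 libraries for Slc25a17, Slc25a53, Slc25a20 and Slc25a40 by strain, with circles for females, triangles for males, a line at the mean and a bar of 1 SD. NZO/HlLtJ lies between 14.7 and 17.8 CPM in Slc25a17 and PWK/PhJ lies lowest in the lower panels, each below every other library.

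Marker lists moved with some of these strains. In PWK/PhJ all 12 oligodendrocyte markers were lower at an adjusted p below 0.05, and their sum ran from 2882 to 3818 CPM against 3035 to 6776 CPM elsewhere, with none of the 12 at 0. With the summed oligodendrocyte level as a covariate, the PWK/PhJ difference was -0.52 (adjusted p = 2.25e-09) in Slc25a20 and -0.71 (adjusted p = 2.57e-12) in Slc25a40, the largest p over the alternatives for each. In CAST/EiJ, the other strain high in Slc25a53, 9 of 12 oligodendrocyte markers were lower. Of 10 astrocyte markers there, 7 were higher and 2 lower. By adjusted p alone, 56.8% of all genes passed in CAST/EiJ and 57.7% in PWK/PhJ, in either direction. With the oligodendrocyte covariate the CAST/EiJ difference of Slc25a53 was 0.77, and the part of astrocyte markers was not tested. In NZO/HlLtJ 5 of 6 tested CA1 neuron markers were lower, beside 16.2% of all genes. The CA1 markers summed to 676.5 to 823.1 CPM there against 724.5 to 1330 CPM elsewhere. A/J, with a Slc25a17 mean of 30.75 CPM, also had 5 of the 6 lower. Of 10 astrocyte markers in NZO/HlLtJ, 6 were higher and 1 lower, beside 21.8% and 16.2% of all genes. Of 10 endothelial and mural markers there, 6 were higher and 2 lower. The part of these markers in the Slc25a17 result was not tested. The Slc25a17 difference was -0.91 with the oligodendrocyte covariate and without the 6 libraries high in short transcripts.

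Among the nucleotide and phosphate carriers, the widest range in a gene with more than a few counts was that of Slc25a24, a calcium-regulated ATP-Mg carrier. WSB/EiJ ran from 3.63 through a median of 4.29 to 4.89 CPM and CAST/EiJ from 3.73 through 4.28 to 4.71 CPM. The 48 other libraries ran from 1.24 to 3.58 CPM, so no library of these strains overlapped the rest. PWK/PhJ was lowest at 1.62 ± 0.363 CPM (SD, n = 8). The range was 1.4 (adjusted p = 1.6e-15). The difference between WSB/EiJ and CAST/EiJ was 0.03 (adjusted p = 0.87), and CAST/EiJ exceeded NZO/HlLtJ by 0.55 (adjusted p = 0.000148). By contrast Slc25a23, Slc25a25, Slc25a3, Slc25a4 and Slc25a5 had ranges of 0.19 to 0.26. Slc25a4 was highest in WSB/EiJ (628 ± 55.5 CPM) and lowest in CAST/EiJ (540 ± 29 CPM), and no neighbours in its order passed the test, while 5 of all 28 pairs did.

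Slc25a31, the ADP/ATP carrier of germ cells called ANT4, had 346 counts in all. The 8 A/J libraries held 2 counts together and the 8 129S1/SvImJ libraries 106. The other strains held from 21 in C57BL/6J to 59 in NZO/HlLtJ. The rate in A/J was 0.0415 times that of the other strains, with an exact 95% interval of 0.00501 to 0.151 that covers counting error only. 129S1/SvImJ ran from 4 through a median of 14.5 to 23 counts per library and exceeded the other strains by 1.99 ± 0.31 (log2, SE; adjusted p = 4.89e-07). The NZO/HlLtJ call rested on a difference of 1 ± 0.35 (adjusted p = 0.019) and was lost in 6 of 9 alternatives and in 34 of 64 fits without a library. The fitted range of 5.12 rests on the 2 counts of A/J and on the prior count of the fit.

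The shuttle and amino acid carriers held 9 tested members, of which Slc25a13 was called. Slc25a13 encodes citrin, the aspartate/glutamate carrier most abundant in liver. CAST/EiJ ran from 3.91 through a median of 4.74 to 5.43 CPM, WSB/EiJ from 3.13 through 3.85 to 5.61 CPM, and the 48 other libraries from 1.44 to 3.75 CPM. CAST/EiJ thus lay above every library of 6 strains, while WSB/EiJ overlapped some of them. The range was 1.17 (adjusted p = 3.27e-13), from 2.09 ± 0.491 CPM (SD, n = 8) in C57BL/6J to 4.73 ± 0.498 CPM in CAST/EiJ. The difference between CAST/EiJ and WSB/EiJ was 0.27 (adjusted p = 0.0552), and WSB/EiJ exceeded PWK/PhJ by 0.53 (adjusted p = 0.00033). The brain form Slc25a12 had a range of 0.26, with 178 ± 7.79 CPM in CAST/EiJ, its lowest strain, and 214 ± 19.2 CPM in NOD/ShiLtJ. Slc25a22, the glutamate carrier whose loss causes early epilepsy in humans, was highest in CAST/EiJ at 354 ± 21.9 CPM, above PWK/PhJ by 0.13 (adjusted p = 0.008).

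Of the 4 carboxylate and carnitine carriers, which include Slc25a20, Slc25a21 was called. Slc25a21 carries oxodicarboxylates of lysine breakdown and had 565 counts in all. CAST/EiJ ran from 7 through a median of 15.5 to 23 counts and PWK/PhJ from 1 through 4 to 7 counts. CAST/EiJ exceeded the other strains by 1.13 ± 0.18 (log2, SE; adjusted p = 4.89e-07), but its lowest library was within the range of the others. The citrate carrier Slc25a1 had a range of 0.23 and the dicarboxylate carrier Slc25a10 of 0.43.

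The 9 cofactor and pyrimidine carriers had ranges from 0.26 for the pyrimidine carrier Slc25a33 to 0.9997 for Slc25a17. The NAD carrier Slc25a51 had a narrow range of 0.27, yet strain accounted for 83.3% of its variance. The 4 iron and glutathione carriers ranged from 0.23 for Slc25a39 to 0.96 for Slc25a40, with the mitoferrins Slc25a28 at 0.37 and Slc25a37 at 0.71. Of the 3 carriers related to uncoupling proteins none was called (0 of 3). Slc25a30 had the widest range at 0.74. It was highest in CAST/EiJ at 14.6 ± 1.44 CPM (SD, n = 8), above WSB/EiJ by 0.41 (adjusted p = 7.21e-07), and lowest in NOD/ShiLtJ at 8.71 ± 1.12 CPM.

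Among the 6 other tested members, most without an established substrate, Slc25a47, first described in liver, split the strains. NOD/ShiLtJ ran from 2.39 through a median of 2.8 to 3.31 CPM, C57BL/6J from 2.12 through 2.48 to 3.62 CPM and 129S1/SvImJ from 1.79 through 2.43 to 3.38 CPM. A/J ran from 0.447 through 0.727 to 1.08 CPM, below every library of these 3 strains. WSB/EiJ ran from 0.722 to 1.57 CPM and NZO/HlLtJ from 0.657 to 1.32 CPM, and both overlapped A/J. The difference between WSB/EiJ and A/J was 0.36 (adjusted p = 0.0989). PWK/PhJ was between at 2 ± 0.331 CPM (SD, n = 8) and exceeded CAST/EiJ, the next strain, by 0.58 (adjusted p = 0.000843). The A/J difference from the other strains was -1.15 ± 0.13 (log2, SE; adjusted p = 8.24e-11), and the range was 1.83 (adjusted p = 3.57e-19). Of the 28 pairs of strains, 11 were called for Slc25a47.

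Slc25a34 was high in NOD/ShiLtJ, A/J and C57BL/6J, at 4.65 ± 0.645, 4.44 ± 0.593 and 4.23 ± 0.729 CPM (SD, n = 8). It was low in NZO/HlLtJ at 2.23 ± 0.403 and in CAST/EiJ at 2.1 ± 0.441 CPM. The highest CAST/EiJ library, at 2.75 CPM, was below the lowest library of those 3 high strains. The range was 1.15 (adjusted p = 2.78e-13). Summed oligodendrocyte markers ran from 3693 to 6776 CPM in NOD/ShiLtJ, from 3979 to 5961 CPM in A/J and from 3978 to 5982 CPM in C57BL/6J. They ran from 3035 to 4027 CPM in CAST/EiJ and from 3495 to 4632 CPM in NZO/HlLtJ. In A/J only 6 of the 12 markers were higher at an adjusted p below 0.05 and 1 was lower. PWK/PhJ, where all 12 were lower, came next after those 3 strains for Slc25a34 at 3.74 ± 0.818 CPM. With the summed marker level as a covariate the range of Slc25a34 fell to 0.89 and the call was lost. Slc25a35 shares 31.3% of its annotated exon bases with Rangrf on the opposite strand, and Slc25a11 shares 8.9% with Rnf167. Slc25a25 shares 4.8% with Naif1, Slc25a26 3% with Lrig1 and Slc25a18 1.7% with Atp6v1e1, which has 6920 counts per library against 1180 for Slc25a18. Since the use of strand in counting is not known, the values of these members are uncertain.

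**Figure D4:**
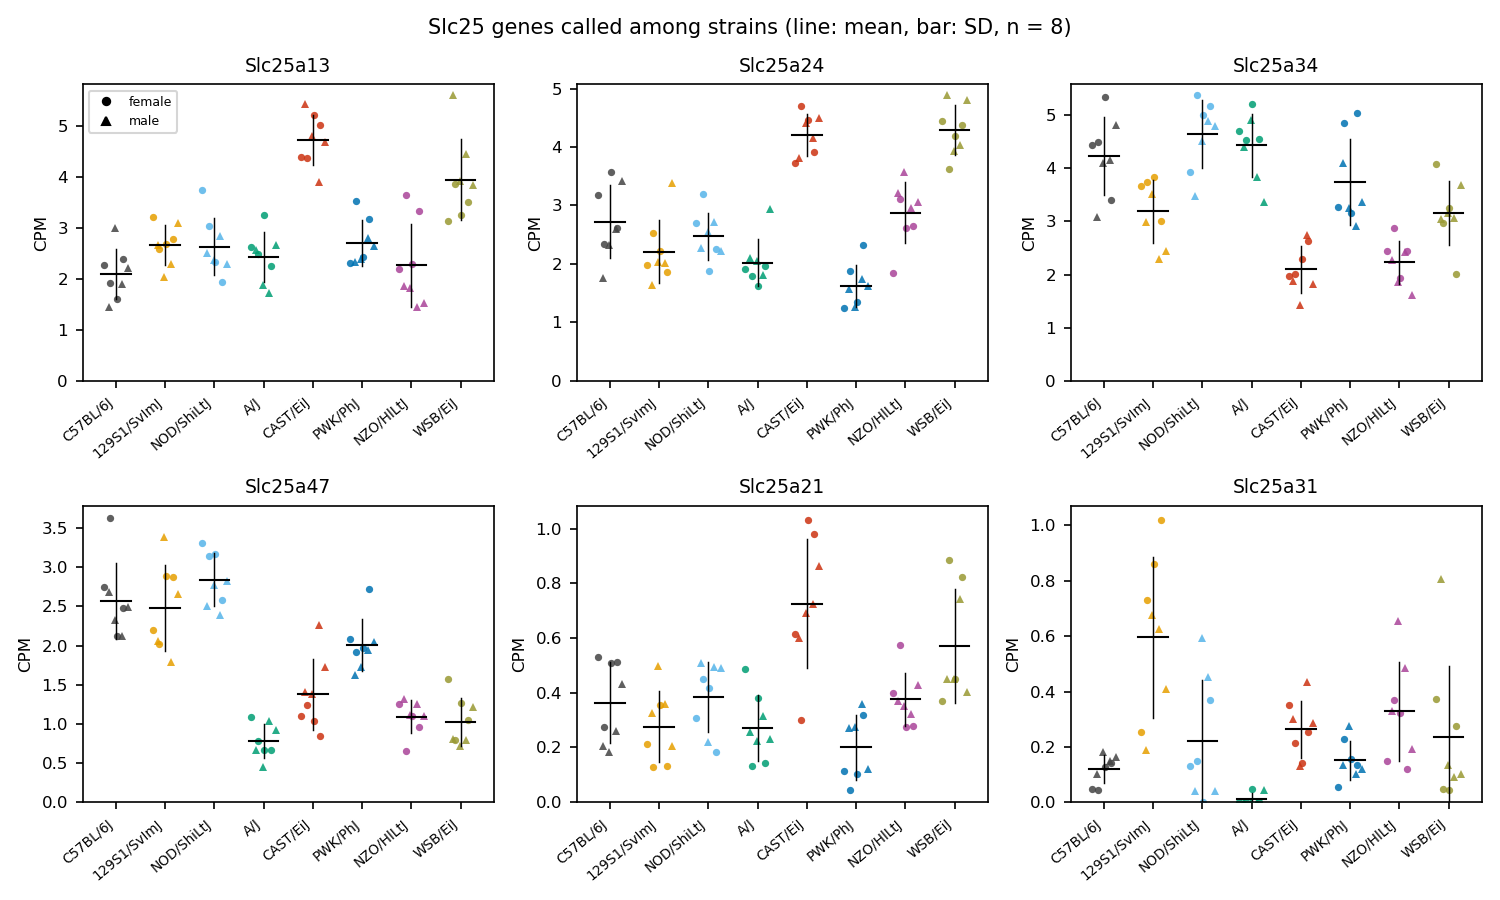
CPM in each of 64 libraries for the 6 Slc25 genes called among strains, with circles for females, triangles for males, a line at the mean and a bar of 1 SD (n = 8). CAST/EiJ and WSB/EiJ are highest in Slc25a13 and Slc25a24, and A/J is lowest in Slc25a47 and near 0 in Slc25a31.

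Of the 5 genes under the count filter, Slc25a41, an ATP-Mg carrier without the calcium-binding domain, had 51 counts in the 8 129S1/SvImJ libraries and 48 in the 8 NOD/ShiLtJ libraries. The other strains had from 6 to 13 counts each. Slc25a54 had 15 counts in CAST/EiJ and 0 in A/J, where a count of 0 allows up to 3. Slc25a48 had 5 counts in CAST/EiJ and 52 in A/J. The ornithine carrier Slc25a2 had 1 count in PWK/PhJ and from 10 to 22 in each other strain. These genes were not tested in the filtered fit.

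Between pairs of strains, 6 members were called in at least 1 of 28 pairs, beside 28.4% of all genes. A/J and CAST/EiJ differed in 4 members, the most of any pair, while 11.3% of all genes were called between them. CAST/EiJ was the highest strain for 11 members and WSB/EiJ for 11 others. PWK/PhJ was the lowest strain most often, for 10 members. The matching shares over all genes were not computed, so these counts are not read as a trait of the family. By adjusted p alone, 56.8% of all genes differed in CAST/EiJ, 57.7% in PWK/PhJ and 42.3% in WSB/EiJ.

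No difference between the sexes was detected. Of 42 members, 0 passed an adjusted p below 0.05 between females and males in edgeR, beside 0.167% of all genes, and 0 passed in DESeq2. At an unadjusted p below 0.05 there were 4 (Slc25a13, Slc25a29, Slc25a34 and Slc25a46), beside 5.3% of all genes. Differences ran from -0.34 (log2, female minus male) in the sparse Slc25a31 to 0.18 in Slc25a34. The tested X-linked members were at -0.01 (Slc25a5), -0.03 (Slc25a53) and 0.0026 (Slc25a14). For the interaction of strain and sex, 0 members passed in edgeR and 0 in DESeq2, beside 0.046% of all genes. At an unadjusted p below 0.05 there were 4 (Slc25a13, Slc25a16, Slc25a38 and Slc25a47), beside 10.7% of all genes.

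Other genes of carrier biology were read from fixed lists. Of 10 genes of the TOM and TIM22 route, which imports carrier proteins into the inner membrane, 0 were called among strains, with a median range of 0.35. Of 13 enzymes that act beside the carriers, such as the aspartate aminotransferases Got1 and Got2, 0 were called, with a median range of 0.24. Of 21 other mitochondrial transport genes 1 was called. It was Mcub, the inhibitory partner of the mitochondrial calcium uniporter, which fell to 0.236 CPM in CAST/EiJ beside 1.77 to 3.26 CPM in the other strains (range 3.79, adjusted p = 3.92e-26). Of the 4 tested family members under other names, Ucp2 was called, at 5.66 CPM in PWK/PhJ and 52.6 CPM in CAST/EiJ (range 3.25, adjusted p = 2.13e-18). By the same rule 27.6% of all genes were called, but the share depends on level. It was 43.8% from 1 to 10 CPM, 7.18% from 10 to 100 CPM and 2.24% at 100 CPM or more. Most genes of these lists were at 10 CPM or more, so few calls were to be awaited.

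Some abundant carriers stood high or low in the 6 libraries high in short transcripts, and others stayed near the median of their strain. In each library, the median log2 deviation of genes with less than 2000 exon bases, minus that of genes with more than 6000, was computed within its strain. It was 0.71 in A/J male 2, 0.69 in 129S1/SvImJ female 1, 0.52 in WSB/EiJ female 1, 0.34 in C57BL/6J male 4, 0.26 in CAST/EiJ female 4 and 0.13 in NZO/HlLtJ male 2. The 58 other libraries ran from -0.083 to 0.0882. Slc25a4 was above the median of its strain in all 6, by 0.52 in 129S1/SvImJ female 1 and 0.50 in A/J male 2. Slc25a23 was below it in 5 of 6, by -0.63 and -0.46 in the same libraries. In all, 11 of 42 members were above their strain's median in each of the 6, with a median exon length of 2360 bases against 3870 for all 42. Slc25a36 and Slc25a53 were below it in each. Slc25a12 lay between -0.09 and 0.01 of its strain's median in the 6, and Slc25a51 between -0.05 and 0.03. The part of this balance in the deviations was not tested. The Slc25a4 strain range was 0.22 with the 6 libraries (adjusted p = 0.0105) and 0.20 without them (adjusted p = 3.84e-08), and the largest adjusted p over the alternatives was 0.0566, with the oligodendrocyte covariate.

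**Figure D5:**
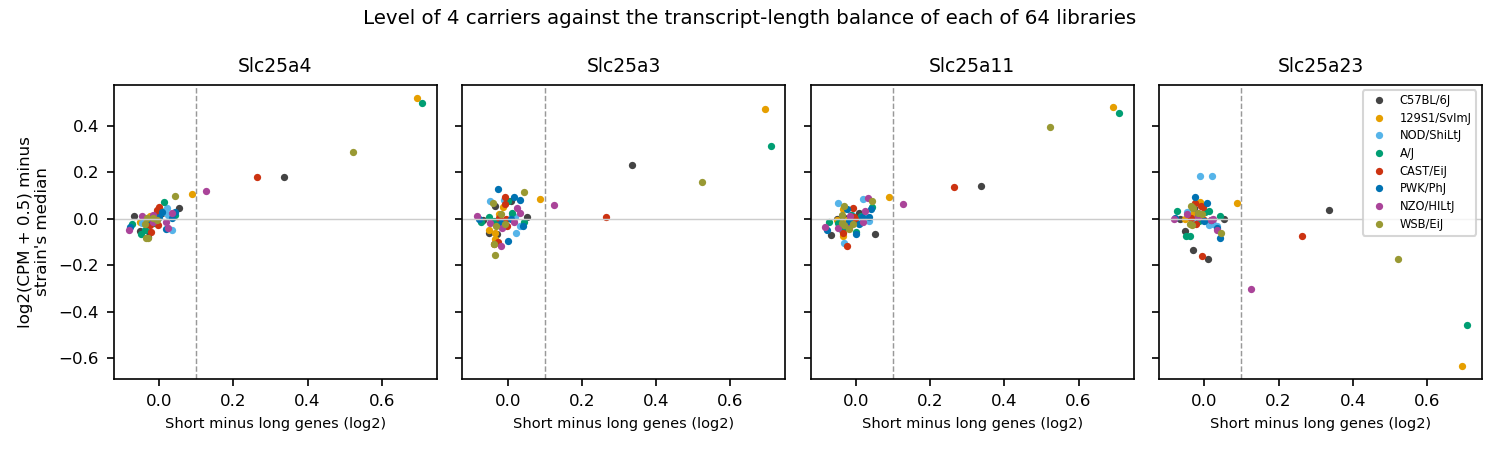
Deviation of Slc25a4, Slc25a3, Slc25a11 and Slc25a23 from the median of their strain (log2 of CPM + 0.5) against the difference between short and long genes in each of 64 libraries, with a dashed line at 0.1. The 6 libraries right of the line are above their strain's median in the first 3 genes, and 5 of 6 are below it in Slc25a23.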

How the data were processed

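Bulk RNA from 64 hippocampus samples was analysed from raw counts per gene that the authors deposited in a single table. Per the submitters' processing notes the genome was GRCm39, and the table's name gives Ensembl release 105. The aligner, the counter, the use of strand and any strain-specific genome are not given in the sources used here. Column names equalled sample titles for 50 libraries and lacked 1 digit of the title in 14. Symbols and exon lengths were taken from GENCODE on GRCm38 for 99.6% of identifiers.

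Counts were fitted with edgeR 4.0.16 in R 4.3.3 (filterByExpr with a minimum of 10 counts and a total of 15, TMM scaling, 16 group means, robust quasi-likelihood, 48 residual degrees of freedom), and p-values were adjusted over 17382 genes. CPM values are counts scaled by library size times the TMM factor. DESeq2 1.42.0 was an alternative. The fit was tested on simulated counts. The family, the gene lists and the tests were chosen with earlier results of these data known. Named were members called among strains or in a strain, the widest member of each role group, the 5 highest per kilobase and the 3 narrowest. Members named to compare paralogues or to mark the ends of a role group, and those with a strain outside all others, were chosen after their values were seen. Intervals cover counting error only.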

Additional observations from a re-analysis of the deposited data

Results flagged for a closer look

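Within a strain, the 8 libraries of each of the 19 named genes were searched for a highest or lowest value set apart from the others by a gap above Dixon's 95% critical value. Of 152 groups, 27 had such a value, while chance gives about 5% of groups. The genes share libraries, so these are not independent.

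In 129S1/SvImJ female 1, Slc25a3 (428 CPM), Slc25a5 (272 CPM), Slc25a4 (824 CPM), Slc25a11 (147 CPM) and Slc25a39 (70.7 CPM) were highest of the 8, and Slc25a23 (350.1 CPM) was lowest of the 8. In A/J male 2, Slc25a3 (375 CPM), Slc25a5 (256 CPM), Slc25a4 (789 CPM) and Slc25a11 (141 CPM) were highest of the 8, and Slc25a23 (357 CPM) was lowest of the 8. In C57BL/6J male 4, Slc25a3 (390.1 CPM), Slc25a5 (255 CPM), Slc25a4 (690.3 CPM) and Slc25a11 (114 CPM) were highest of the 8. In WSB/EiJ female 1, Slc25a4 (752 CPM), Slc25a11 (120.2 CPM) and Slc25a39 (69.1 CPM) were highest of the 8. In CAST/EiJ female 4, Slc25a4 (603 CPM) and Slc25a39 (67.8 CPM) were highest of the 8. In NZO/HlLtJ male 2, Slc25a4 (626 CPM) was highest of the 8, and Slc25a23 (422 CPM) was lowest of the 8. All these are libraries in which genes with short transcripts were high relative to long ones, and the part of that balance was not tested. The 5 other values belong to single libraries. Slc25a24 was highest in A/J male 4 at 2.94 CPM. Slc25a31 was highest in WSB/EiJ male 1 at 0.807 CPM. Slc25a47 was highest in C57BL/6J female 2 at 3.62 CPM. Slc25a47 was highest in PWK/PhJ female 4 at 2.73 CPM. Slc25a40 was lowest in A/J female 4 at 7.28 CPM.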

How the results depend on the processing

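The results were recomputed under 10 other settings, under 1 added after seeing the data (without the 6 libraries high in short transcripts), and without each of 64 libraries in turn. Over the alternatives, 488 of 502 values for single genes kept their direction and call, and 0 reversed. A call needs both the adjusted p and the minimum of 1, and the median range of the members was 0.44. Most members were thus too far below the minimum for their call to change, so this count says little about them. Slc25a4 (F test, adjusted p = 0.0566 with the oligodendrocyte covariate) and Slc25a39 (below 0.05 without the 6 libraries) crossed 0.05 and still counted as kept in 10 of 10. The count of members called among strains was 11 with no count filter, 4 under a filter of 50 counts on the mean (3 genes shared with the 6) and 41 with no fold or range minimum. It was 6 to 7 without a library. Slc25a17 passed the range minimum under 7 of 10 alternatives, with ranges of 0.9899 to 1.002.

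Calls in a strain against the others, 5 in all, became 12 with no count filter, 0 with the higher count minimum and 176 with no fold minimum, and 4 to 6 without a library. With no fold minimum the strains had 14 (C57BL/6J), 16 (129S1/SvImJ), 23 (NOD/ShiLtJ), 23 (A/J), 28 (CAST/EiJ), 26 (PWK/PhJ), 21 (NZO/HlLtJ) and 25 (WSB/EiJ). With no count filter they were 0 (C57BL/6J), 2 (129S1/SvImJ), 2 (NOD/ShiLtJ), 3 (A/J), 3 (CAST/EiJ), 1 (PWK/PhJ), 0 (NZO/HlLtJ) and 1 (WSB/EiJ). Under the filter of 50 counts they were 0 in 129S1/SvImJ, A/J, CAST/EiJ and NZO/HlLtJ, where the genes called had too few counts to be tested. The NZO/HlLtJ call was also lost (0) with DESeq2 size factors, with the choroid plexus covariate, without the libraries that stand apart, without the 6 libraries and without the CAST/EiJ females. Without the libraries that stand apart, and likewise without the 6, 129S1/SvImJ had 2 and NOD/ShiLtJ 1, and Slc25a41 then passed the count filter. PWK/PhJ had 1 with DESeq2, and 0 to 1 without a library, with a change in 10 of 64 fits. NZO/HlLtJ had 0 to 1 without a library. Members called in at least 1 pair were 11 with no count filter and 42 with no fold minimum. Counts for sex and for its interaction with strain were 0 throughout.

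No paired analysis was possible because the replicate numbers only follow the order of deposition. Pairs of strains were not run without each library, and the fits without a library kept the genes and dispersion trend of the full fit. CAST/EiJ females carry title numbers apart from all others, so number and sex cannot be told apart there. Depth limits Slc25a21 and Slc25a31, which had 565 and 346 counts over 64 libraries.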
